A study of Mus musculus with 24 samples.

Results

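This comparison set the liver of mice with human PER1 carrying the variant S714G at ZT13, called mutant ZT13, against the liver of mice with human PER1 carrying the unchanged residue S714 at ZT1, called control ZT1. ZT gives hours from lights on, so the arrays compared differ in both genotype and light time, by 12 h. Each group had 3 arrays, and the 6 arrays were 6 of the 24 in the series. Other arrays used here were the opposite pair of liver groups, control ZT13 and mutant ZT1, with 3 arrays each, and the same genotypes and times in white adipose tissue. All mice carried human PER1, were male, 2 months old and C57BL/6, and had spent 10 days on a light-dark schedule. The promoter behind human PER1 and the state of the mouse Per1 gene are not given in the sources used here. The design text gives 3 independent repeats per group and does not say that each came from another animal, so p-values measure the spread between these samples.

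The mammalian clock is a loop in which ARNTL with CLOCK or NPAS2 switches on the Per and Cry genes, whose proteins then hold back that same complex. REV-ERB and ROR receptors set the rhythm of Arntl, and the factors DBP, TEF, HLF and NFIL3 pass the rhythm on to output genes. In liver, the same output genes also answer to feeding, body temperature and hormones, and Per1 and Per2 are known to be driven by such signals as well as by the loop. The serine changed here matches the PER2 serine that is altered in familial advanced sleep phase. A clock that runs early can bring 2 different light times to a like internal time, and the crossed comparison asks which transcripts were then alike and which kept to the light-dark cycle.

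A level is the log2 of a probe's processed signal minus the 75th percentile of its array, and a difference is the mean level in mutant ZT13 minus that in control ZT1. A gene was called when limma's adjusted p, over 21848 genes with a probe well above background on every array of at least 1 liver group, was under 0.05. In all, 10399 genes were called, or 47.6%, of which 4395 were higher in mutant ZT13 (20.1%) and 6004 were lower (27.5%). A gene was counted as matched when the 95% interval of its difference lay within 1.5-fold either way, or 0.585 on the log2 scale, and 2973 genes were (13.6%). For 8478 genes the data did not settle either way. In the other crossed pair, control ZT13 minus mutant ZT1, which shares no array with the first, 614 genes were called (2.81%, with 1.43% higher and 1.38% lower). The values of mutant ZT13 and control ZT1 did not overlap in 12046 genes (55.1%). Light-time genes were those called with the same sign in both crossed pairs. They numbered 283 (1.3%), with 145 higher (0.664%) and 138 lower (0.632%) at ZT13. Each crossed pair differs in genotype as well as time. A gene can thus meet the rule without differing between the times within the mutant or, like Cry1, within the control.

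All 3 control ZT1 liver arrays lay on slide 1 and all 3 mutant ZT13 liver arrays on slide 3, so slide and group cannot be told apart within liver. All 3 mutant ZT1 liver arrays lay on slide 2, and control ZT13 lay mostly on slide 3. In both crossed pairs slide thus largely ran with light time, and the light-time rule does not separate them. Comparisons that held control ZT1 called about as many genes as each other and far more than those that did not: control ZT13 minus control ZT1 gave 11190 genes (51.2%, with 21.3% higher and 29.9% lower), and mutant ZT13 minus control ZT13 gave 659 (3.02%). The 75th percentile of signal was 805 to 861 on mutant ZT13 arrays and 376 to 673 on control ZT1 arrays. Replicates were also less alike in control ZT1: the SD of log2 differences between 2 arrays was 0.37 to 0.40 in mutant ZT13 and 0.65 to 0.79 in control ZT1. The share of genes called was 49.2% for dim genes, 52.1% for those of middle brightness and 41.5% for bright ones, taking 3 sets of equal size, with median differences of -0.50, -0.08 and 0.07. The median over all genes was -0.13. With slide as a random block over the 12 liver arrays 13062 genes were called, with an estimated correlation within slides of -0.137. As a fixed term slide could be fitted with the 12 adipose arrays on the same slides, and 43 genes were then called (0.197%). Below, slide as a term means that fit. Its slide offsets rest only on the groups that lay on more than 1 slide. In adipose mutant ZT1, replicate 3 lay on slide 2 and the rest on slide 1. In liver control ZT13, replicate 1 lay on slide 2 and the rest on slide 3. Slides 1 and 3 were thus linked through 1 array of each of these groups. In that fit the median standard error was 0.58, against 0.28 for the 24 arrays without the slide term. The part of the slides in each result below was not tested beyond these fits.

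In the core clock, Arntl and Dbp lay close together in mutant ZT13 and control ZT1 and far from the other 2 liver groups, while Per1 and Per2 were much higher in mutant ZT13. The clock index, the mean level of 8 genes known to peak by day (Dbp, Hlf, Tef, Usp2, Ciart, Per3, and the REV-ERB genes Nr1d1 and Nr1d2) less the mean of 5 known to peak late at night (Arntl, Clock, Npas2, Nfil3 and Cry1), was -1.33, -1.29 and -1.63 in mutant ZT13. In control ZT1 it was -1.01, -1.5 and -1.02. The means were -1.42 ± 0.18 and -1.18 ± 0.28 (SD, n = 3 each), and the values overlapped. In the other pair the index was 3.90 ± 0.11 in control ZT13 and 3.28 ± 0.31 in mutant ZT1, so the distance within each crossed pair was -0.24 and 0.62, against a distance of 5.08 between control ZT13 and control ZT1. An exact permutation test of 3 arrays against 3 cannot go below p = 0.1. The sign of the crossed distance depends on the members: the index holds an Nr1d2 probe that another Nr1d2 probe opposes, and Per3 and Ciart, which were not well above background in either crossed group. With the other Nr1d2 probe the distance turned to 0.15, and with the 5 day genes left without Nr1d2, Per3 and Ciart it turned to 0.48, where control ZT13 and control ZT1 were 5.4 and 4.84 apart. Both alternatives were chosen after seeing the data. Of the 23 core clock genes, 8 were called higher and 5 lower, 10 were not called and 0 were matched, where the shares over all genes were 20.1% higher and 27.5% lower. The median difference of the 23 was 0.28, beside -0.13 over all genes.

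Arntl, the activator at the head of the loop, stood high in both groups. Its levels were 1.59, 1.43 and 1.69 in mutant ZT13 and 0.68, 1.17 and 0.94 in control ZT1. They were -1.87, -2.48 and -2.66 in control ZT13 and -1.83, -1.71 and -1.87 in mutant ZT1. The arrays thus fell into a high pair and a low pair of groups that crossed light time, and mutant ZT13 lay above every control ZT1 array. Its difference was 0.64 (95% interval 0.19 to 1.09, limma adjusted p = 0.0243), or 1.56-fold, beside a difference of 3.91 between mutant ZT13 and control ZT13. The call for Arntl was lost with quantile normalization (0.54), with normexp and quantile normalization (0.37), with another choice of probes for the percentile (0.50), in the fit of all 24 arrays with or without a slide term, and without mutant ZT13 replicate 1 (0.63), mutant ZT13 replicate 3 (0.58) or control ZT1 replicate 1 (0.51). Clock, its partner, had levels of 1.06, 1.08 and 0.89 in mutant ZT13 and 0.51, 0.65 and 0.77 in control ZT1. The groups did not overlap, yet the difference of 0.37 was not called (adjusted p = 0.0869).

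Npas2, a stand-in for Clock, had -1.90, -2.08 and -1.85 in mutant ZT13 and -0.51, -1.29 and -1.3 in control ZT1 (adjusted p = 0.108). In control ZT13 and mutant ZT1 it was not well above background on any array. Nfil3, a repressor that opposes DBP, was lower in mutant ZT13, at 2.68, 2.41 and 2.54 against 3.77, 3.15 and 3.28 in control ZT1 (difference -0.85, adjusted p = 0.0101). Cry1, a late-acting repressor of the loop, had -2.28, -2.35 and -2.08 in mutant ZT13 and -4.27, -3.20 and -3.71 in control ZT1. It was 2.8-fold higher (difference 1.49, adjusted p = 0.000603), and in the other pair control ZT13 was also higher than mutant ZT1, by 1.70. For Cry1, control ZT13 minus control ZT1 gave -0.04 and was not called, while mutant ZT13 minus mutant ZT1 gave 3.22. No mutant ZT1 array had Cry1 well above background. Cry1 was well above background on 1 of the 3 control ZT1 arrays, and with slide as a term its difference was -0.84.

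Dbp, an output factor with a wide daily swing, overlapped between the crossed groups. It read 2.39, 2.06 and 2.15 in mutant ZT13 and 2.72, 2.26 and 2.38 in control ZT1, while control ZT13 had 5.59, 5.97 and 5.83 and mutant ZT1 had 5.76, 5.61 and 5.61. Mutant ZT13 and control ZT1 overlapped, and both lay more than 2 log2 units below the other 2 groups. The difference of -0.26 was not called, and its interval of -0.62 to 0.11 passed the 1.5-fold limit on 1 side. A second Dbp probe gave -0.13 for the same difference and 4.48 for control ZT13 minus control ZT1. Tef was 1.74-fold higher in mutant ZT13, with 2.27, 2.27 and 2.11 against 1.68, 1.24 and 1.34 in control ZT1 (adjusted p = 0.00119). Hlf overlapped, with 1.27, 1.11 and 1.13 in mutant ZT13 and 1.57, 0.46 and 1.0 in control ZT1.

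Per1 and Per2, the repressor genes that also answer to light, feeding and hormone signals, kept a large excess at ZT13 in the crossed pairs. Per1 had levels of 0.02, 1.01 and 0.18 in mutant ZT13 and -3.26, -3.33 and -3.41 in control ZT1, and 2 of the 3 control ZT1 spots were well above background. In the other pair Per1 had 1.85, 2.24 and 2.13 in control ZT13 and 0.33, -0.40 and 0.08 in mutant ZT1. No array of a ZT13 group overlapped with its crossed ZT1 group, although mutant ZT13 and mutant ZT1 overlapped. Per1 was 13.3-fold higher in mutant ZT13 than in control ZT1 (difference 3.73, interval 3.17 to 4.30, limma adjusted p = 9.84e-06), and control ZT13 was higher than mutant ZT1 by 2.07 (adjusted p = 0.00295). With slide as a term Per1 was still called (3.44, adjusted p = 0.0399), the sole core clock gene that was. A dimmer Per1 probe whose record is not in RefSeq gave -0.99. Whether the Per1 probe also binds the human PER1 transcript is not given, so its level may hold both.

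Per2 read 0.64, 0.57 and 0.66 in mutant ZT13 and -2.50, -2.49 and -2.68 in control ZT1, a 9.05-fold excess (difference 3.18, adjusted p = 8.21e-06). In control ZT13 it read 1.13, 1.76 and 1.36, and in mutant ZT1 -0.31, 0.38 and 0.38 (difference 1.27, adjusted p = 0.011). Both pairs again ran higher at ZT13 without overlap. Within the mutant, Per2 at ZT13 minus ZT1 gave 0.48 and was not called. Usp2, which encodes a clock-driven deubiquitinase, had 0.01, 0.16 and -0.57 in mutant ZT13 and -1.35, -2.62 and -2.60 in control ZT1. Its other pair had 3.18, 3.41 and 3.38 in control ZT13 and 0.93, 1.13 and 1.5 in mutant ZT1. Usp2 thus carried both patterns: the differences within the crossed pairs were 2.06 and 2.14, and mutant ZT13 lay 3.45 below control ZT13 (adjusted p = 0.000293). Mutant ZT13 minus mutant ZT1 gave -1.32 for Usp2 and was not called. Bhlhe40, a repressor of clock genes, was 8.24-fold higher in mutant ZT13, at 2.50, 2.74 and 2.68 against -0.97, 0.63 and -0.87 in control ZT1. There the control ZT1 group stood alone, since control ZT13 averaged 3.56 ± 0.10 and mutant ZT1 3.1 ± 0.21 (SD, n = 3 each).

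**Figure D1:**
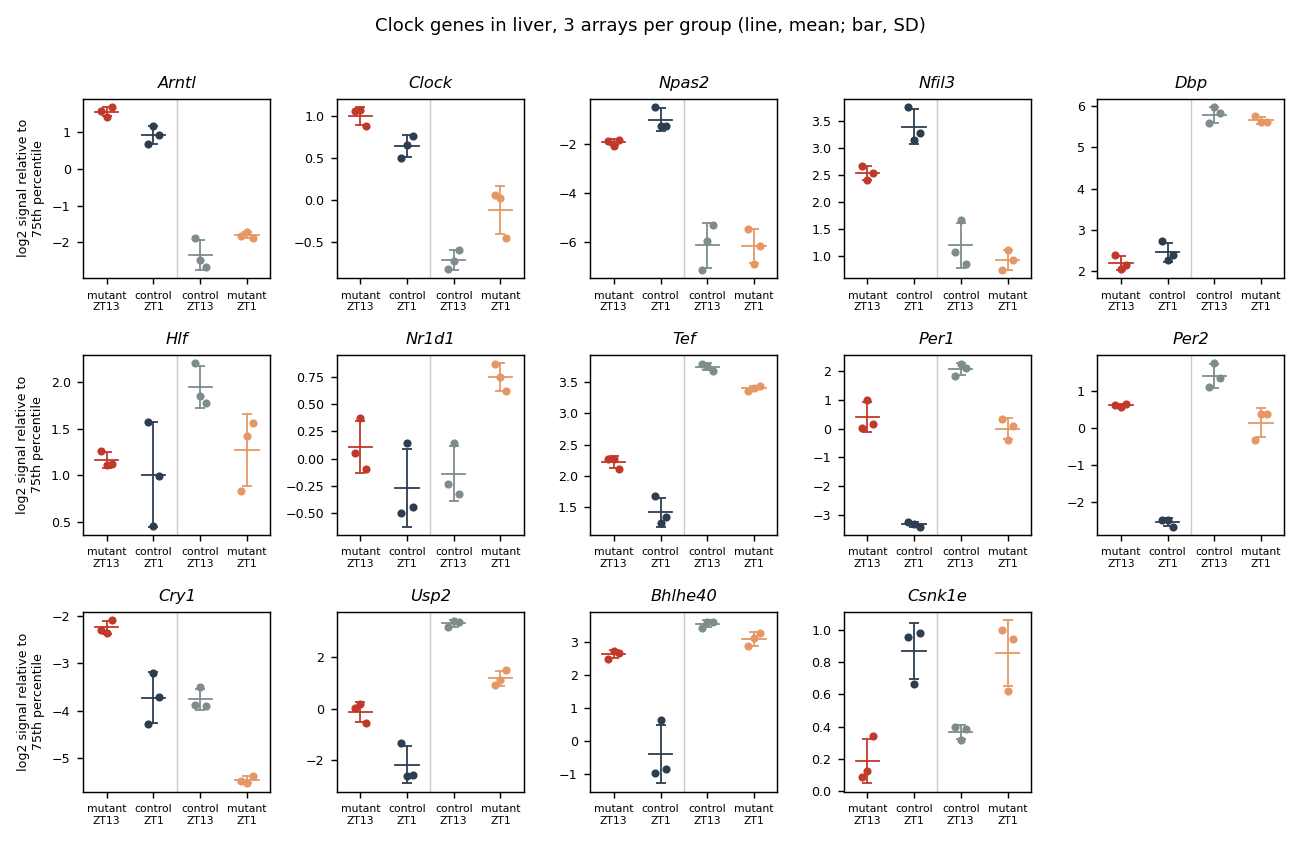
Levels of 14 clock genes (y axis, log2 signal relative to the array's 75th percentile) on each liver array, with the mean as a line and the SD as a bar, 3 arrays per group. Arntl and Dbp join mutant ZT13 with control ZT1, while Per1 sits at 0.02 to 1.01 in mutant ZT13 and at -3.41 to -3.26 in control ZT1.

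The probes behind these genes are shown because Nr1d2 gave opposite answers with 2 of them, as Per1 did with a dimmer probe not shown. The start of each 60-base probe is given 5′ to 3′, in lower case throughout.
Arntl: gagccattgatacaagtcaatctaccatgt
Dbp: tggggaacccatccatccaaccgcctccat
Per1: gtgttctcagctctaccctctaccaatgac
Per2: acctttcacagtgatcaggtagtagccatg
Usp2: gagtagaatgtctagtgtacagtggagcct
Nr1d2, chromosome 14: ccagaactgttagtattgcttgtgatgctt
Nr1d2, chromosome 19: ctgtgaggggagctcagatagatgtatctt
On mm9 the array design places the probes at chr7:120457261-120457320 (+ strand, Arntl), chr7:52965461-52965520 (+, Dbp), chr11:68923364-68923423 (+, Per1), chr1:93313046-93313105 (-, Per2), chr9:43903649-43903708 (+, Usp2), chr14:19037253-19037312 (-, Nr1d2) and chr19:40271435-40271494 (+, Nr1d2). Nr1d2 encodes REV-ERB beta, a repressor of Arntl. The brighter probe, on chromosome 19 and named only by symbol, was lower in mutant ZT13, at -1.58, -2.01 and -1.65 against 0.05, -0.38 and -0.33 in control ZT1 (difference -1.53). The probe on chromosome 14, matched by its RefSeq record, was higher, at -1.44, -1.92 and -1.42 against -4.21, -2.41 and -2.93 (difference 1.59), and 1 of its 3 control ZT1 spots was well above background. The array design thus places the brighter probe on another chromosome than the probe matched by RefSeq record. The brighter probe still stands for Nr1d2 in the clock index and among the 5 core clock genes called lower. No direction is therefore given for Nr1d2. The mean of both probes differed by 0.03.

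Most of the remaining core clock genes were not called. Nr1d1, which encodes REV-ERB alpha, had 0.05, 0.37 and -0.10 in mutant ZT13 and -0.49, 0.15 and -0.44 in control ZT1, with overlap (adjusted p = 0.157). Csnk1e, a kinase that marks PER proteins for decay, was lower at 0.09, 0.13 and 0.34 against 0.96, 0.67 and 0.98 (difference -0.68, adjusted p = 0.00417). Rora, Cry2, Bhlhe41 and Csnk1d overlapped between the groups and were not called. Per3 and Ciart were not well above background on any array of either group, so no fold is given, although the fit called Ciart lower and counts it among the 5.

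Promoters of 4 genes are shown because they hold words that the loop or its input signals read: Per1, Rcan1 and Slc25a25 were higher at ZT13 in both crossed pairs, and Arntl was high in mutant ZT13 and control ZT1 and low in the other 2 liver groups. Each window runs from 250 bases before to 50 after a gene's start in RefSeq (GRCm38.p6), 5′ to 3′ on the gene's strand, with the words found in capitals.
Per1: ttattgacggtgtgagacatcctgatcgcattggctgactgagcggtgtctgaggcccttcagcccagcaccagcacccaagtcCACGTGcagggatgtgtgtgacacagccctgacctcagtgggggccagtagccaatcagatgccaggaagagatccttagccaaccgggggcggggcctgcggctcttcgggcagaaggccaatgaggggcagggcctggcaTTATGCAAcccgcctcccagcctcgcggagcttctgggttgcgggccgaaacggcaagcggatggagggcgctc
Arntl: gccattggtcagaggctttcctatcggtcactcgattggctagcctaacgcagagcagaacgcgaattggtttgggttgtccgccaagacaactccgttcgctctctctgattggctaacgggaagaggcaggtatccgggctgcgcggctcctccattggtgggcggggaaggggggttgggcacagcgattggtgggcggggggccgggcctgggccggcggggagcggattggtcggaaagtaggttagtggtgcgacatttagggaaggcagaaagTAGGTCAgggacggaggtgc
Rcan1: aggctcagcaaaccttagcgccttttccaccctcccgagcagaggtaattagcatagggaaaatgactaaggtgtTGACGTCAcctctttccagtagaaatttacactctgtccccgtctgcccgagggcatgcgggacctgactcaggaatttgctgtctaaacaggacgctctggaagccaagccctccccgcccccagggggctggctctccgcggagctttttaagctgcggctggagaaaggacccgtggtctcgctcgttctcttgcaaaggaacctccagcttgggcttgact
Slc25a25: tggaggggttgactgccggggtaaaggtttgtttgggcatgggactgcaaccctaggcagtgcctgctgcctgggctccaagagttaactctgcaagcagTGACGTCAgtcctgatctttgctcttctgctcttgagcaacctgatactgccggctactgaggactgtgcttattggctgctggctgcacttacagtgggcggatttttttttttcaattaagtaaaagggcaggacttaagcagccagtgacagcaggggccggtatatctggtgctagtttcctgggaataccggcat
These windows are chr11:69098699-69098998 (+ strand, Per1), chr7:113207261-113207560 (+, Arntl), chr16:92400029-92400328 (-, Rcan1, 1 of 2 starts) and chr2:32424017-32424316 (-, Slc25a25). Capitals mark the E-box CACGTG, read by ARNTL with CLOCK, and the D-box variant TTATGCAA, read by DBP, TEF, HLF and NFIL3, in Per1; the ROR element TAGGTCA, read by ROR and REV-ERB, in Arntl; and the cyclic AMP element TGACGTCA, read by CREB, in Rcan1 and Slc25a25. On either strand, an E-box stood in 7.15% of 32851 RefSeq windows of this length, the D-box variant in 0.743%, the D-box TTATGTAA in 0.938%, the ROR element in 2.61% and the cyclic AMP element in 1.79%. Of 108 genes named in this work, 87 had a window. An E-box stood in those of 13 of them, Cry1, Tef, Lonrf3 and Gdf15 included, and Gdf15 was lower at ZT13 in both crossed pairs. The window of the other Rcan1 start held an E-box. The cyclic AMP element stood in those of 6: Rcan1, Slc25a25, Hlf, Errfi1, Brca2 and Spag6l. Of these Brca2 was a matched gene and Spag6l a light-time gene lower at ZT13. A match is a word in the sequence and not a measured site.

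Light-time genes included secreted, transport, stress and signalling genes. They made up 2.72% of the genes called in mutant ZT13 minus control ZT1 and 46.1% of those called in control ZT13 minus mutant ZT1. Of the 348 genes called in both pairs, 81.3% had the same sign, and 65 genes (0.298% of those tested) had opposite signs. Tsku, a secreted liver protein that acts on lipid and growth signals, had 2.46, 3.04 and 2.30 in mutant ZT13 and 0.19, -1.14 and -0.47 in control ZT1. Control ZT13 had 4.29, 3.57 and 3.53 and mutant ZT1 had 0.18, 1.41 and 2.16. Both ZT13 groups lay above their ZT1 partners, 8.39-fold in the first pair (difference 3.07, adjusted p = 0.000519) and by 2.55 on the log2 scale in the second (adjusted p = 0.0187). Mutant ZT13 minus mutant ZT1 gave 1.35 for Tsku and was not called.

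Hspa1a, the heat-inducible HSP70 chaperone, split by light time. It read 2.51, 2.04 and 1.58 in mutant ZT13 and -0.94, -0.36 and -0.75 in control ZT1, and 1.88, 1.75 and 1.81 in control ZT13 and -1.07, -0.55 and -0.41 in mutant ZT1. Within each time the genotypes overlapped, and between times they did not. It was 6.63-fold higher in mutant ZT13 (difference 2.73, adjusted p = 3.49e-05), and the other pair differed by 2.49 (adjusted p = 0.00103). Its probe also stands in the record of Hspa1b, so the 2 genes cannot be told apart. The whole probe is shown because it is shared, at chr17:35107117-35107176 of mm9 (- strand).
Hspa1a: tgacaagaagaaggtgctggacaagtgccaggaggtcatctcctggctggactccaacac

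Alas1, the rate-limiting enzyme of heme synthesis in liver, had 5.05, 5.24 and 5.43 in mutant ZT13 and 3.03, 3.43 and 3.81 in control ZT1. It had 6.32, 6.28 and 6.46 in control ZT13 and 4.31, 4.12 and 4.35 in mutant ZT1. Alas1 was 3.52-fold higher in mutant ZT13 (difference 1.82, adjusted p = 7.29e-05) and higher by 2.09 in the other pair (adjusted p = 0.000682), while mutant ZT13 stayed below control ZT13 by 1.11 (adjusted p = 0.0103). Mfsd2a, a lipid transporter induced by fasting, was also higher at ZT13 in both pairs, with a wider gap between genotypes. Its levels were 0.08, 0.94 and 1.15 in mutant ZT13 and -0.59, -1.80 and -1.12 in control ZT1, against 4.17, 4.45 and 4.63 in control ZT13 and 1.26, 0.24 and 1.28 in mutant ZT1. The pairs differed by 1.90 (adjusted p = 0.00219) and 3.49 (adjusted p = 0.00153). Within the mutant the times overlapped, and ZT13 minus ZT1 gave -0.20 (limma adjusted p = 0.877), against 5.59 within the control.

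Sik1, Rcan1 and Slc25a25 are known targets of cyclic AMP or calcium signals. Sik1, a kinase that limits CREB coactivators, had -0.11, 0.80 and 0.30 in mutant ZT13 and -1.79, -2.32 and -1.26 in control ZT1, a 4.35-fold excess (adjusted p = 0.00023), and the other pair differed by 1.82. Rcan1, an inhibitor of calcineurin, had 1.31, 0.36 and 0.65 in mutant ZT13 and -0.78, -1.15 and -1.35 in control ZT1, 3.65-fold higher (adjusted p = 0.00144), with 1.83 in the other pair. Slc25a25, a calcium-regulated carrier of mitochondrial ATP, had 3.77, 4.83 and 3.41 in mutant ZT13 and 2.13, 1.73 and 2.65 in control ZT1, 3.57-fold higher (adjusted p = 0.00205), with 1.82 in the other pair. All 3 genes were higher at ZT13 in both pairs, with no overlap in either. Mutant ZT13 minus mutant ZT1 gave 0.84 for Sik1, 1.41 for Rcan1 and 0.61 for Slc25a25, and none was called. Kbtbd8, an adaptor of a ubiquitin ligase, was not well above background in either ZT1 group and at least 1.57-fold higher in mutant ZT13, and its difference turned to -3.50 with slide as a term.

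Among the genes lower at ZT13, Egr1, an immediate early transcription factor, had the largest difference of the 10 named. It had -1.12, -3.88 and -3.52 in mutant ZT13 and 1.22, 1.51 and 0.89 in control ZT1, 16.5-fold lower (difference -4.05, interval -5.39 to -2.70, adjusted p = 0.000483). In the other pair it had -4.70, -3.59 and -3.82 in control ZT13 and 0.27, -0.45 and -0.99 in mutant ZT1 (difference -3.65, adjusted p = 0.011). Replicate 1 of mutant ZT13 lay above the other 2 by over 2 log2 units and still below each control ZT1 array, and 1 of the 3 control ZT13 spots was well above background. Gdf15, a stress hormone, was 3.09-fold lower, with -0.73, -0.47 and -0.50 in mutant ZT13 and 1.54, 0.46 and 1.17 in control ZT1 (adjusted p = 0.000474), and -1.45 in the other pair. Retnlg, a gene of neutrophils, was 2.69-fold lower (-3.21, -2.69 and -2.46 against -0.73, -1.97 and -1.38, adjusted p = 0.00414), with -2.44 in the other pair. Of 7 neutrophil markers 3 were tested and Retnlg alone was called, beside 27.5% of all genes called lower. S100a9 was 2.05-fold lower and S100a8 1.17-fold higher, neither called. Clec14a, an endothelial lectin, was 2.68-fold lower (-0.55, -0.45 and -0.83 against 0.94, 0.81 and 0.69, adjusted p = 0.000291), with -1.46 in the other pair. In bulk tissue, fewer cells of a type and less RNA per cell cannot be told apart. Mterf2, a mitochondrial transcription factor relative, Rnu2-10, a U2 spliceosomal RNA gene, Rps23rg1, a processed copy of a ribosomal protein gene, and Cd55b, a complement regulator, were 5.33-, 4.96-, 3.47- and 2.54-fold lower, and Tmem139 and Spag6l complete the 10. Mterf2 was well above background on 1 of 3 mutant ZT13 arrays and 2 of 3 control ZT1 arrays.

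With slide as a term over 24 arrays, 9 genes were light-time genes, among them Cd247 and Nkx2-6 and none of the 20 named. In the fit of the liver arrays without that term, Cd247 differed by 0.20 in the first pair and 0.80 in the other. Nkx2-6 differed by -0.08 and 0.66 there, and none of these differences was called. Of the 9, only 7330403C04Rik, Npl and an unnamed transcript on chromosome 9 were light-time genes in both fits. At the edge of the rule, Mlxip (0.91, adjusted p = 0.0499 in the other pair) and Zfp213 (0.47, adjusted p = 0.0483 in the first pair) lay just inside, and Prss23 (-0.91, adjusted p = 0.0508) and Skil (0.70, adjusted p = 0.0509) just outside, both by the other pair.

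**Figure D2:**
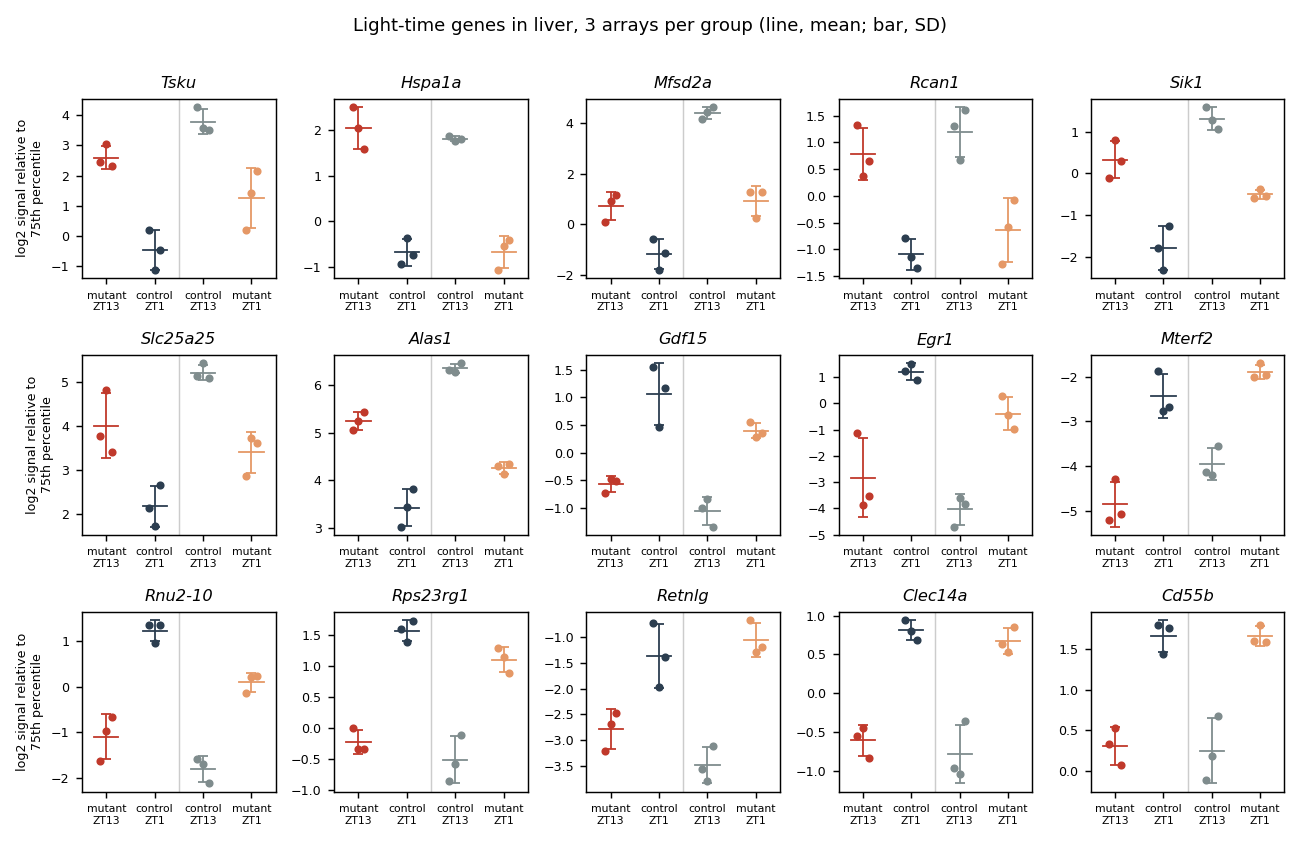
Levels of 15 light-time genes (y axis, log2 signal relative to the 75th percentile) on each liver array, with mean and SD of 3 arrays per group. In each panel both ZT13 groups lie on the same side of their crossed ZT1 partners; Hspa1a sits at 1.58 to 2.51 in mutant ZT13 and at -0.94 to -0.36 in control ZT1.

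**Figure D3:**
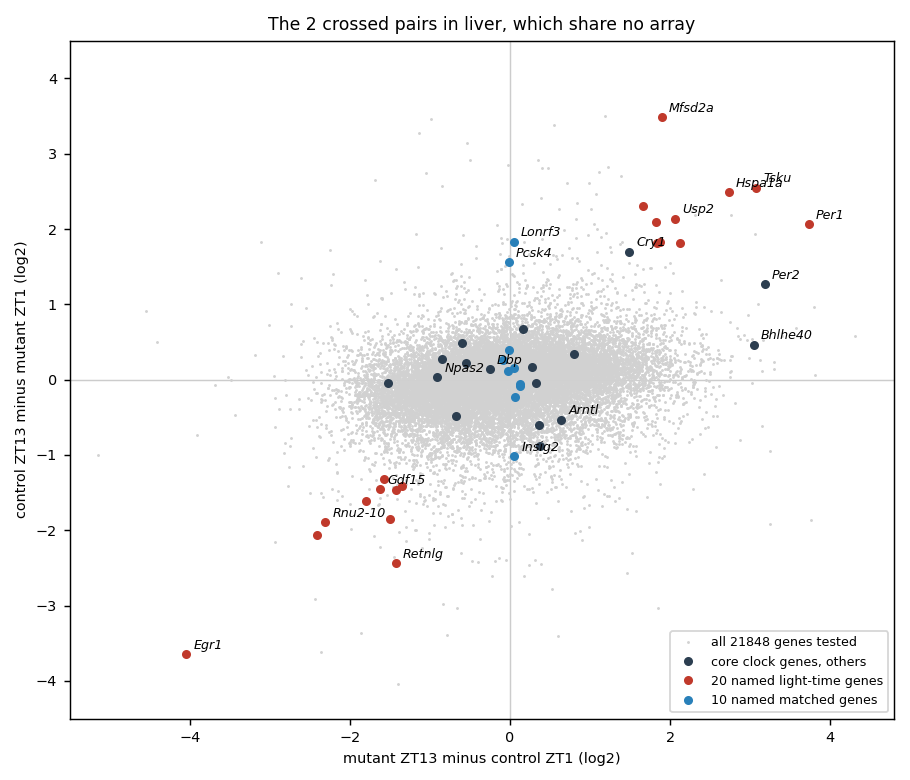
Each point is 1 of 21848 genes, with its difference in mutant ZT13 minus control ZT1 (x axis, log2) against that in control ZT13 minus mutant ZT1 (y axis, log2). Light-time genes fall in the upper right and lower left corners, with Per1 at 3.73 and 2.07 and Egr1 at -4.05 and -3.65, while matched genes lie near 0 on the x axis; core clock genes not well above background in both compared groups are left uncoloured.

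Matched genes with a large genotype by time term were few. The genotype by time term, the mean of mutant ZT13 and control ZT1 minus the mean of control ZT13 and mutant ZT1, was called for 6809 genes (31.2%) and was called and at least 2-fold for 911 (4.17%). Of those 911 genes, 12 were matched (1.32%, beside 13.6% of all genes). In mutant ZT13 minus control ZT1, 652 of the 911 were called (71.6%, beside 47.6%). Of these 280 were higher and 372 lower, beside 20.1% and 27.5% of all genes. A gene in which control ZT1 alone stands apart also gets a large term, as Rbm8a did (-1.56). The term therefore does not by itself mark a gene that swings in opposite directions in the genotypes. Of the 12, 10 are named here. Insig2, which holds back cholesterol and lipid synthesis through SREBP, had 4.03, 4.09 and 4.05 in mutant ZT13 and 3.87, 4.26 and 3.89 in control ZT1. Control ZT13 had 2.74, 2.62 and 2.17 and mutant ZT1 had 3.58, 3.46 and 3.55. The crossed groups overlapped (difference 0.05, interval -0.33 to 0.43), and the other 2 groups were lower and 1.02 apart. A second Insig2 probe gave 1.15.

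Pcsk4, a proprotein convertase, had 1.11, 1.49 and 1.27 in mutant ZT13 and 1.39, 1.26 and 1.29 in control ZT1, against 4.63, 4.81 and 5.01 in control ZT13 and 3.22, 3.26 and 3.30 in mutant ZT1. It was alike in the low pair (difference -0.02, interval -0.34 to 0.30) and differed by 1.56 in the high pair. Ulk1, the kinase that starts autophagy, had 2.51, 2.23 and 2.31 in mutant ZT13 and 2.35, 2.70 and 2.10 in control ZT1, and 3.41 to 3.70 on all 6 arrays of the other pair. Ppargc1b, a coactivator of mitochondrial and lipid genes, had -1.34, -1.11 and -1.51 in mutant ZT13 and -1.16, -1.91 and -1.25 in control ZT1, and averaged -0.29 in control ZT13 and -0.21 in mutant ZT1. Slc38a4, an amino acid transporter of hepatocytes, had 4.04, 4.06 and 3.94 in mutant ZT13 and 3.59, 4.10 and 4.16 in control ZT1, about 1 log2 unit below the other pair. In each of these genes the crossed groups overlapped. Lonrf3, a ubiquitin ligase, was low in mutant ZT1 alone, and Rnf144b, Lnpep, H3c14 and Brca2 complete the set. A second probe gave 1.06 for Rnf144b and -0.45 for Lonrf3.

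The H3c14 probe also fits its near-identical copies. At the edge of the matched rule, Trim68 and Selp reached 0.585 just inside the limit, and Arap3 and P4hb lay just outside.

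**Figure D4:**
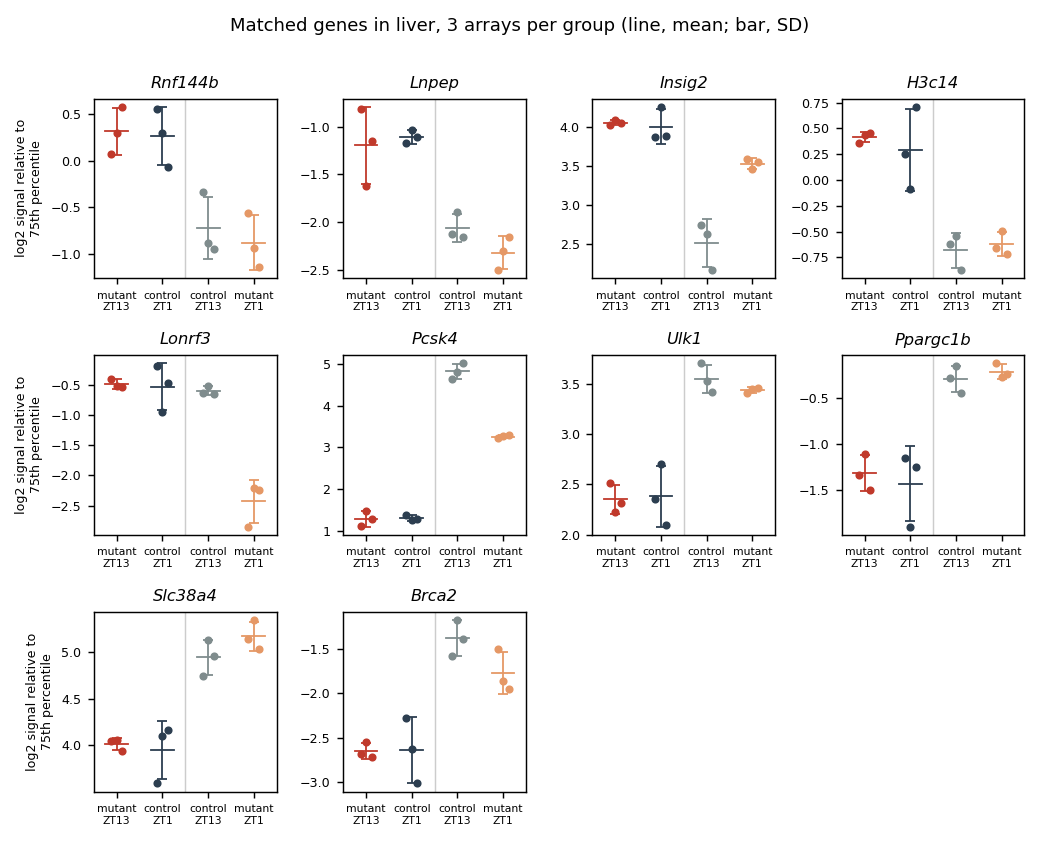
Levels of the 10 named matched genes (y axis, log2 signal relative to the 75th percentile) on each liver array, with mean and SD of 3 arrays per group. Mutant ZT13 and control ZT1 overlap in every panel, as in Pcsk4 at 1.11 to 1.49 and 1.26 to 1.39, while the other pair lies above or below, except Lonrf3 in control ZT13.

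Among the 10 largest called differences in each direction, control ZT1 stood apart from all 3 other liver groups in most genes. Rbm8a, a core protein of the exon junction complex, had 4.53, 4.17 and 4.47 in mutant ZT13 and 0.90, 1.18 and 1.17 in control ZT1 (9.86-fold higher, adjusted p = 1.74e-06), while control ZT13 had 4.29 to 4.46 and mutant ZT1 4.19 to 4.29. Mphosph10, a nucleolar protein of ribosome assembly, was 11.9-fold higher in mutant ZT13, averaging 0.03 ± 0.31 there and -3.54 ± 0.58 in control ZT1 (SD, n = 3 each). It was well above background on 1 of the 3 control ZT1 arrays, and its other probe gave -0.53. Hspa2, an HSP70 relative, was at least 6.58-fold higher, since it was not well above background on any control ZT1 array, and control ZT13 lay 0.97 above mutant ZT1 (adjusted p = 0.0222). Zcrb1, Chsy3, Gnai1, Mycl and Pax2 complete the higher set with Per1 and Per2, and the 2 other Pax2 probes gave -0.85 and 0.36. Mycl and Gnai1 were likewise not well above background in control ZT1, at least 5.77- and 2.63-fold higher.

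Among the lower genes, Trib3, a pseudokinase of the stress response, had -0.99, -1.24 and -0.98 in mutant ZT13 and 2.37, 1.19 and 1.52 in control ZT1, 6.79-fold lower (difference -2.76, adjusted p = 4.78e-05). It was also lower in control ZT13 than in mutant ZT1 (-1.16, adjusted p = 0.0453), which made it a light-time gene. Prkg2, a cyclic GMP-dependent kinase, was at least 11.4-fold lower, and not well above background on any mutant ZT13 array. Its control ZT1 values spread widely, at -3.75, 0.62 and -1.06. Lix1 and Rgs11 rested in part on control ZT1 replicate 3, which read 1.42 and 1.3 where the other 2 arrays read -1.99 and -2.76, and -2.74 and -3.77. Brs3, Klhl1, Olfr52, Ano3 and Pramel19 complete the 10 with Egr1, and Olfr52, an olfactory receptor gene, was called with slide as a term (-10.06, adjusted p = 0.0055).

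Of 28 tested genes that carry the clock's output in liver, 13 were called higher in mutant ZT13 and 3 lower (Rgs16, Ces2a and Cdkn1a), beside 20.1% and 27.5% of all genes. Their median difference was 0.68, beside -0.13 over all genes. Of the 28, 3 were matched, beside 13.6% of all genes, and 8 were light-time genes, beside 1.3%. Control ZT13 minus mutant ZT1 gave 12 higher and 1 lower, beside 1.43% and 1.38% of all genes. Coq10b, which helps coenzyme Q work in mitochondria, had 2.27, 2.05 and 2.07 in mutant ZT13 and -0.76, -0.20 and 0.06 in control ZT1 (5.38-fold higher, adjusted p = 2.44e-05). Wee1, the kinase that holds back mitosis, was 2.9-fold higher, at -0.64, -0.25 and -0.66 against -2.00, -2.26 and -1.89 in control ZT1, and 1.93 below control ZT13. Gys2, liver glycogen synthase, was 2.71-fold higher, at 4.76, 4.97 and 4.73 against 3.06, 3.56 and 3.52. Nampt, the rate-limiting enzyme of NAD salvage, was 1.96-fold higher, at 2.38, 2.24 and 2.24 against 1.60, 1.07 and 1.29. None of the 28 was called with slide as a term.

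Of 19 tested chaperone and regulator genes of the heat shock response, 10 were called higher and 2 lower (Hsf1 and Cryab), beside 20.1% and 27.5% of all genes. Of the rest 4 were matched and 3 neither called nor matched, and the median difference was 0.89. Hspa4l had 1.29, 0.83 and 0.57 in mutant ZT13 and -1.72, -1.57 and -1.20 in control ZT1 (5.27-fold higher, adjusted p = 2.65e-05). Hsph1, which renews HSP70, had 4.02, 3.82 and 4.0 against 1.88, 2.37 and 2.07 (3.59-fold), and Bag3, an HSP70 cochaperone, 3.83, 3.90 and 3.75 against 2.33, 2.16 and 1.85 (3.27-fold). Chordc1, an HSP90 cochaperone, was 3.25-fold and Dnaja1, an HSP40, 2.32-fold higher. In the other pair 3 of the 19 were called higher and 0 lower, beside 1.43% and 1.38% of all genes. Without any 1 of the 6 arrays, 10 to 13 were higher and 0 to 2 lower, and with slide as a term 0 were called. Of the 2 cold-inducible genes, Cirbp, an RNA-binding protein, was 2.35-fold lower, at 0.49, 0.38 and 0.63 against 1.96, 1.40 and 1.82 (adjusted p = 0.000681). Control ZT1 stood alone for Cirbp, since control ZT13 averaged 0.44 and mutant ZT1 0.52. With slide as a term Cirbp turned to 0.91. Rbm3 was matched, at 3.16, 3.44 and 3.31 against 3.53, 3.16 and 3.02, but its 2 other probes gave 0.46 and -1.23.

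Of 23 tested genes of the unfolded protein and amino acid response, 15 were called higher and 2 lower (Trib3 and Chac1), beside 20.1% and 27.5% of all genes, with a median difference of 0.96. In the other pair 0 were higher and 1 lower, beside 1.43% and 1.38%. Herpud1, which helps clear misfolded proteins from the endoplasmic reticulum, had 5.92, 5.91 and 5.45 in mutant ZT13 and 3.0, 4.49 and 3.83 in control ZT1 (3.96-fold higher, adjusted p = 0.000566). Hsp90b1, its HSP90 chaperone, had 4.47, 4.60 and 4.39 against 2.05, 3.15 and 2.46 (3.82-fold), and Ddit3, a stress transcription factor, 2.38, 2.26 and 2.07 against 0.58, 0.05 and 0.82 (3.37-fold). Hspa5, the main chaperone there, was 1.83-fold higher, at 4.30, 4.38 and 3.94 against 3.36, 3.31 and 3.32. For these 4 genes control ZT13 and mutant ZT1 differed by at most 0.51, and none of these differences was called. Control ZT1 stood alone for Herpud1, with averages of 5.82 in control ZT13 and 5.31 in mutant ZT1. It also stood alone for Hsp90b1, with averages of 4.20 in control ZT13 and 4.30 in mutant ZT1. For Ddit3 and Hspa5 those groups lay between mutant ZT13 and control ZT1. With slide as a term Hsp90b1 turned to -0.04. Of the 23, Creld2 alone was called in that fit.

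Lipid genes were called in both directions, and the counts of the lipid, bile acid, glucose and glucocorticoid lists are to be read beside 20.1% higher, 27.5% lower and 13.6% matched over all genes. For fatty acid and triglyceride synthesis 8 of 23 were called higher and 2 lower (Acacb and Acss2), with a median of 0.36. Fasn, fatty acid synthase, had 2.48, 2.59 and 2.74 in mutant ZT13 and 0.74, 0.64 and -0.28 in control ZT1 (4.72-fold higher, adjusted p = 0.00181). Control ZT1 stood alone for Fasn, since control ZT13 averaged 2.77 and mutant ZT1 3.59. Acss2, which makes acetyl-CoA from acetate, was 2.3-fold lower, at 4.13, 4.18 and 4.07 against 5.66, 4.93 and 5.40. Lpin1, a phosphatidate phosphatase, had a wide gap between genotypes at ZT13, with 1.15, 0.97 and 0.88 in mutant ZT13 and 0.24, -0.41 and 0.21 in control ZT1, and 4.49, 5.10 and 5.12 in control ZT13. It was 1.98-fold higher than control ZT1 and lay 3.90 below control ZT13. For cholesterol synthesis 8 of 23 were higher and 4 lower, with a median of 0.07. Lss, lanosterol synthase, was 2.64-fold higher, at 0.69, 0.75 and 1.19 in mutant ZT13 against -0.28, -0.60 and -0.69 in control ZT1 (adjusted p = 0.000299). Mvk, mevalonate kinase, was 2.16-fold lower by its brightest probe, and another gave 0.19. Without 1 array, 5 to 8 were higher and 1 to 6 lower.

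PPAR alpha targets and genes of fatty acid oxidation gave 7 higher and 3 lower of 23, with 5 matched and a median of 0.31. Slc25a20, the carnitine carrier of mitochondria, had 4.25, 4.34 and 4.40 in mutant ZT13 and 2.01, 1.87 and 2.28 in control ZT1 (4.84-fold higher, adjusted p = 7.34e-06). Control ZT1 stood alone for it, since control ZT13 had 4.21 to 4.52 and mutant ZT1 3.94 to 4.12. Pdk4, the fasting-induced brake on glucose oxidation, was 2.46-fold lower, at 0.41, 0.91 and 0.83 against 2.52, 1.46 and 2.06, and control ZT13 was also lower than mutant ZT1, by 1.33 (adjusted p = 0.0346). Pdk4 mixed both patterns, for mutant ZT13 lay 2.41 above control ZT13. Of 16 bile acid genes 5 were higher, 3 lower and 5 matched. Cyp7a1, the rate-limiting enzyme of bile acid synthesis, had 3.75, 3.55 and 2.29 against 1.90, 1.89 and 2.29, 2.25-fold higher (adjusted p = 0.0139), and replicate 3 of mutant ZT13 lay at the top of the control ZT1 range. Its call was lost in the fit of all 24 arrays (adjusted p = 0.3823) and without mutant ZT13 replicate 1 (0.90) or replicate 2 (0.99). Nr0b2, the SHP repressor of bile acid synthesis, was 2.63-fold lower, at 2.14, 2.82 and 3.61 against 4.41, 4.29 and 4.05.

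Glucose genes gave 8 higher and 3 lower of 22, beside 20.1% and 27.5% of all genes, with a median of 0.03. Pfkfb3, which sets the signal that speeds glycolysis, was a light-time gene: it had 0.94, 1.0 and 1.27 in mutant ZT13 and 0.14, -0.24 and -0.34 in control ZT1 (2.33-fold higher, adjusted p = 0.00038), and 3.02, 3.06 and 3.17 in control ZT13 against 0.02, 0.23 and 0.51 in mutant ZT1. Averaged over its probes, Pfkfb3 was no longer called (0.48). Foxo1, a transcription factor of fasting, was 1.8-fold higher and differed by 0.78 in the other pair. Igfbp1, an insulin-repressed binding protein of IGF, was 3.37-fold lower, at 2.80, 3.74 and 4.18 against 5.45, 5.30 and 5.24. Among 18 glucocorticoid-responsive genes 4 were higher and 6 lower, near the shares over all genes, with a median of -0.43. Tsc22d3, which encodes GILZ, had 3.29, 3.79 and 3.34 in mutant ZT13 and 1.79, 2.51 and 2.30 in control ZT1 (2.41-fold higher, adjusted p = 0.000557), with 1.40 in the other pair, where 8 of the 18 were higher and 0 lower, beside 1.43% and 1.38% of all genes. Errfi1, a brake on EGF receptor signals, was 3.82-fold higher, with 1.5 in the other pair.

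Ribosome biogenesis genes gave 8 higher and 1 lower of 23, beside 20.1% and 27.5% of all genes, with a median of 0.32. Wdr43 was 3.54-fold higher, at -0.10, 0.67 and 0.28 against -1.62, -1.18 and -1.82, and Nop14, another assembly factor, 2.48-fold. Of 14 interferon-responsive genes 0 were higher and 7 lower, beside the same shares, with a median of -0.57. Mx1, an antiviral GTPase, was 3.53-fold lower, at -4.32, -3.77 and -3.05 against -1.06, -2.40 and -2.22 (adjusted p = 0.00228). In the other pair 0 of the 14 were called in either direction. Without 1 array, 0 to 2 were higher and 5 to 7 lower.

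**Figure D5:**
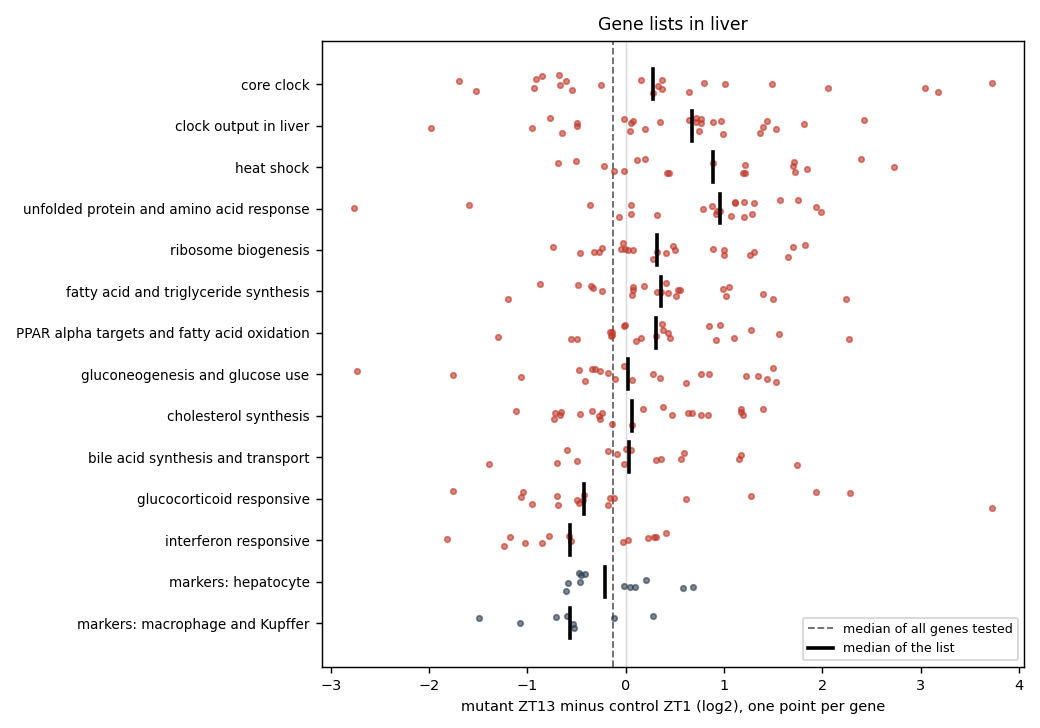
Differences, mutant ZT13 minus control ZT1 (x axis, log2), of the tested members of 14 gene lists, 1 point per gene, with each list's median as a bar and the median over all genes, -0.13, as a dashed line. The medians run from 0.96 for the unfolded protein and amino acid response to -0.57 for interferon-responsive genes and macrophage markers.

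Hepatocyte markers were bright in both groups, as the tissue label says. Of 12, 0 were called in either direction and 1 was matched, and Alb, serum albumin, had 8.26, 8.15 and 7.27 in mutant ZT13 and 8.28, 8.44 and 8.74 in control ZT1. Of 8 markers of Kupffer cells, the macrophages of the liver, 6 were called lower and 0 higher, beside 27.5% and 20.1% of all genes, with a median of -0.57. Timd4, a receptor of resident Kupffer cells, had -1.78, -1.25 and -1.54 in mutant ZT13 and 0.12, 0.06 and -0.29 in control ZT1 (2.81-fold lower, adjusted p = 0.00012), and Vsig4 was 2.11-fold lower. The summed level of the 8 was 5.61 to 6.08 in mutant ZT13 and 6.33 to 6.55 in control ZT1. That sum was 5.90 to 5.97 in control ZT13 and 6.05 to 6.23 in mutant ZT1.

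Markers of other cell types gave small lists, and their counts are to be read beside 20.1% higher and 27.5% lower over all genes. Of 6 endothelial markers 3 were lower (Kdr, Cdh5 and Stab2) and 2 higher (Pecam1 and Tek), with summed levels of 3.71 to 3.97 in mutant ZT13 and 4.48 to 4.76 in control ZT1. Of the T cell markers tested, Cd3e and Lck were 2.46- and 2.42-fold lower and Cd4 and Cd3d were not called. Of 6 stellate cell and fibroblast markers 0 were called. The bile duct list summed to 3.42 to 4.28 in mutant ZT13 and 2.60 to 3.38 in control ZT1, and Spp1 was 2.13-fold higher and Krt7 1.79-fold lower. The 6 adipocyte markers tested summed to 3.76 to 4.06 and 3.59 to 3.74, with Plin1 and Lep not well above background on every array of any group. Of 4 skeletal muscle markers 2 were tested and both were lower, Acta1, skeletal alpha-actin, averaging -3.76 ± 0.51 in mutant ZT13 and -2.51 ± 0.35 in control ZT1 (SD, n = 3 each; difference -1.25, limma adjusted p = 0.0107), and Tnnt3, a fast muscle troponin, with a difference of -0.96 (adjusted p = 0.0183) and -0.19 by a dimmer probe. Of 4 B cell markers 2 were tested and 1, Cd79a, was lower, by a probe that the array design does not place on that gene's chromosome, so no value is given. The part of these cell types in the light-time and list results was not tested.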

How the data were processed

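Total RNA from 24 tissue samples was hybridised to 1-colour Agilent arrays of 62976 spots. The authors deposited each array's scanner output, in which the processed signal, the mean signal and the background signal are intensities, per the file headers, with flags for spots above background, saturated or outlying, which the deposited files give as other values of 0 or 1. Images were read with Agilent Feature Extraction 10.7.3.1 and probe positions are on mm9, per the file headers. The deposited value table holds log2 values, as judged by setting it against the scanner output: every value was within 0.01 of the log2 signal minus the array's 75th percentile.

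The log2 of the processed signal minus the array's 75th percentile was computed for 55681 non-control probes, outlying spots were left out, and spots of a probe were averaged. A probe entered when each of the 3 arrays in some liver group had it well above background, and the brightest such probe stood for a gene. Names came from RefSeq by accession for 26762 probes, by current symbol for 3819 and by synonym for 639, and from the files for 24461.

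The fit was limma 3.58.1 (R 4.3.3) with 4 group means over 12 liver arrays, two-sided, with Benjamini-Hochberg adjustment at 0.05. Fold bounds for genes not well above background in a group set the bright group's mean against the dim group's, with each dim array at its lowest signal above background or the gene's own signal, whichever was higher. The named genes were the core clock list, the 10 largest per direction of called, light-time and matched genes with an ordinary symbol, and per list the members of lowest p. Some genes that this rule names are not reported here. Members and lists were chosen with earlier results of these data known. The script was tested on simulated data. The number of arrays limits the precision. Replicate numbers did not pair the samples (correlations of -0.04, 0.12 and -0.01).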

Additional observations from a re-analysis of the deposited data

Results flagged for a closer look

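For 8 of the 41 core clock and light-time genes set against adipose tissue, the difference mutant ZT13 minus control ZT1 was not the same in liver and in white adipose tissue, by limma's test of liver minus adipose over 24 arrays, which called 316 of 21848 genes. The light-time genes were chosen for large differences in liver, which favours a tissue difference. Their count is therefore not to be read against the share over all genes. Both tissues' groups lay on the same 2 slides. Hspa1a, the HSP70 chaperone, was higher in liver (2.73) and at 0.04 in adipose tissue, so the tissues differed by 2.69 (adjusted p = 0.00113). Per1 was higher in both, by 3.73 in liver and 1.71 in adipose tissue (tissue difference 2.02, adjusted p = 0.0157). Alas1 differed by 1.82 in liver and 0.56 in adipose tissue (1.25, adjusted p = 0.0311). Mfsd2a went in opposite directions, with 1.90 in liver and -1.85 in adipose tissue (3.74, adjusted p = 0.0339). Nr1d1 was not called in liver (0.37, adjusted p = 0.157) and was lower in adipose tissue (-1.29), a tissue difference of 1.67 (adjusted p = 0.0286). Mterf2 was lower in liver (-2.41) and at -0.13 in adipose tissue (-2.29, adjusted p = 0.00714). Retnlg was lower in both, by -1.43 in liver and -4.51 in adipose tissue (3.08, adjusted p = 0.0029). Per3 gave -2.70 (adjusted p = 0.0482), from a liver pair that was not well above background and 2.02 in adipose tissue.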

How the results depend on the processing

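Of the 83 called named genes, 68 kept their direction and their call under every alternative other than a fixed slide term. With a fixed slide term, 70 of the 108 named genes kept their direction but lost their call. Another 12 lost their call and changed sign, while Per1 kept both. The genes called in mutant ZT13 minus control ZT1 (10399) became 16090 with no filter on dim probes and 43 with slide as a fixed term, and 7734 to 12007 without 1 array. The other crossed pair (614) became 402 with quantile normalization, 180 with no filter, 357 over 24 arrays, 76 with a fixed and 1164 with a random slide block, and 172 to 396 without 1 array. The genotype by time term (6809) became 3370 over 24 arrays, 281 with a fixed slide block, and 4765 to 9312 without 1 array. Matched genes (2973) became 4916 with normexp and quantile normalization, 9552 with a 2-fold limit, 1 with a fixed slide block, and 1874 to 3972 without 1 array, with the low counts without mutant ZT13 replicate 1 (1874), 2 (1949) or 3 (1969). Light-time genes (283) became, in alternatives chosen after seeing the data, 93 with no filter, 157 over 24 arrays, 9 with a fixed and 602 with a random slide block. Without 1 array they numbered 94 to 571, and control ZT1 replicate 3 alone (293) moved the count by under 1.5 times. The clock index difference (-0.24) turned to 0.086 with normexp and quantile normalization, to 0.15 with the other Nr1d2 probe and to 0.48 without Nr1d2, Per3 and Ciart (the last 2 chosen after seeing the data), and lay at -0.401 to -0.136 without 1 array. The replicate block gave 10126 genes, 388 in the other pair, 2653 matched, 6614 for genotype by time and 193 light-time genes, though the numbers did not pair the samples.

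With a mean over probes the difference turned to 0.031 for Nr1d2. With a fixed slide block it turned to -0.835 for Cry1, -0.426 for Mycl, -3.50 for Kbtbd8, 1.57 for Spag6l, -0.893 for Gys2, 0.905 for Cirbp, -0.0375 for Hsp90b1, -0.0376 for Agpat2, 0.548 for Nr0b2, -0.220 for Baat, -0.168 for Pfkfb1 and 0.242 for Sds. The cause was not tested. All 108 named genes kept direction and call with the deposited value table. Signal over background limits the dim genes most.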

Other observations

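Of 11 genes of NAD metabolism 4 were called higher and 4 lower in mutant ZT13 than in control ZT1, beside 20.1% and 27.5% of all genes (median -0.41). Without 1 array 3 to 4 were higher and 3 to 6 lower. Nmrk1, a kinase that makes NAD from nicotinamide riboside, had 0.97, 1.69 and 1.80 in mutant ZT13 and -0.73, 0.08 and -0.87 in control ZT1 (1.99, limma adjusted p = 0.000217). Sirt1, an NAD-dependent deacetylase, had 0.65, 0.71 and 0.75 in mutant ZT13 and 2.16, 1.62 and 1.82 in control ZT1 (-1.16, adjusted p = 0.000258). Neither gene overlapped between the groups. Pik3r1, a regulatory subunit of PI3 kinase, had 0.09, 0.49 and 0.49 in mutant ZT13 and -2.25, -1.52 and -3.08 in control ZT1 (2.64, adjusted p = 0.000345), 1 of 3 higher genes among 15 of insulin and IGF signalling, a share near that over all genes.

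Among 15 acute phase genes 5 were higher and 1 lower, beside the same 20.1% and 27.5%. Apcs, which encodes serum amyloid P, had 2.42, 2.54 and 2.77 in mutant ZT13 and 1.42, 0.79 and 1.04 in control ZT1 (1.5, adjusted p = 0.000209). Steap4, a metalloreductase, had 1.45, 1.58 and 1.3 in mutant ZT13 and -1.15, 0.39 and -0.24 in control ZT1 (1.78, adjusted p = 0.000967). Of 13 immediate early genes 3 were higher, near the share over all genes, and 2 lower, with Egr1 the furthest; without 1 array 1 to 4 were higher and 1 to 3 lower. Jun, a subunit of AP-1, was higher at ZT13 in both pairs, by 0.62 (adjusted p = 0.0163) and 1.39 (adjusted p = 0.00346).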
